A study of Homo sapiens with 12 samples.

Results

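UPF1 was knocked down in 293A-TOA cells, a derivative of the human embryonic kidney line HEK293, that were also depleted of SFSWAP, and the splicing of single exons and introns was read from polyA RNA. The comparison is of 3 siSFSWAP/siUPF1 libraries, from cells given siRNAs against SFSWAP and UPF1, with 3 siSFSWAP libraries, from cells given the SFSWAP siRNAs alone. It uses 6 of the 12 libraries of the series. The other 6 libraries, 3 siNT/siUPF1 and 3 siNT from cells given a non-target siRNA in place of the SFSWAP siRNAs, serve here only as the same UPF1 knockdown in cells that still have SFSWAP. All 12 libraries are labelled as biological replicates, and TG (1 μM, 6 h) was given to all cells before harvest. The SFSWAP siRNAs were given as a mixture, and the knockdown was transient, so each group is a population of cells with lowered, not absent, SFSWAP or UPF1. For cells without the UPF1 siRNA, no non-target siRNA is listed in its place. The total siRNA dose may therefore differ between groups with and without siUPF1, and its effect was not tested. An event was kept when its coordinates were the same in the siSFSWAP and the siSFSWAP/siUPF1 table, its reads averaged 10 or more per library, and 10 or more reads of each form, inclusion and skipping, were seen over the 6 libraries. This left 25748 skipped exons in 7044 genes, of 64303 present in both tables, and 3015 retained introns of 5021.

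UPF1 is the RNA helicase at the centre of nonsense-mediated decay (NMD), the pathway that destroys mRNAs whose stop codon lies too far upstream of an exon junction. When UPF1 is lowered, transcripts that carry a poison exon, or that have lost an exon so that the frame shifts, are no longer cleared and become visible in the polyA RNA. Genes for SR proteins and other splicing factors use such exons to hold their own level. SFSWAP is an SR-like splicing regulator. Decoy exons are short exons inside retained introns that hold the intron back from splicing. TG (Thiamet-G) blocks the enzyme that removes O-GlcNAc from proteins, which raises O-GlcNAc, and cells answer high O-GlcNAc by retaining an intron of OGT, the gene for the enzyme that adds it.

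The exons that carry the results are shown first, read 5′ to 3′ on the strand of the gene from the human genome (hg38). Each run starts with the last pair of intron bases before the exon and ends with the first pair after it, both in capitals, and a stop codon that is in frame with the upstream coding exon is also in capitals. SRSF6 and OGT are exons that bring a stop with them, UQCRH is an exon that shifts the frame, SNRPA1 is a coding exon whose loss shifts the frame, and SRRM1 meets a stop right after its start.
SRSF6 poison exon, chr20:43459153-43459420, plus strand: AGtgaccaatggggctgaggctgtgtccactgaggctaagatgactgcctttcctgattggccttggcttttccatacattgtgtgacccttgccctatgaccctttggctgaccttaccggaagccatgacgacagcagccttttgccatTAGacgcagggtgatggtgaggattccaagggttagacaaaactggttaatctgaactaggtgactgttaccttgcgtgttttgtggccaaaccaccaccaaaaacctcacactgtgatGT
UQCRH added exon, chr1:46309897-46310044, plus strand: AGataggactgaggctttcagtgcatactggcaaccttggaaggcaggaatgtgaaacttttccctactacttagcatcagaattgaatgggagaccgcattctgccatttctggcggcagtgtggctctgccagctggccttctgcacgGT
SNRPA1 coding exon 6, chr15:101286214-101286293, minus strand: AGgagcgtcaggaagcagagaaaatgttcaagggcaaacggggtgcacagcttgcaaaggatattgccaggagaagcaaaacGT
SRRM1 added exon, chr1:24647079-24647208, plus strand: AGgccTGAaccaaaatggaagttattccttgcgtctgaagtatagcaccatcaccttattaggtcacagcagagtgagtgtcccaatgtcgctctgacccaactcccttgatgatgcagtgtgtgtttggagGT
OGT decoy exon, chrX:71546344-71546496, plus strand: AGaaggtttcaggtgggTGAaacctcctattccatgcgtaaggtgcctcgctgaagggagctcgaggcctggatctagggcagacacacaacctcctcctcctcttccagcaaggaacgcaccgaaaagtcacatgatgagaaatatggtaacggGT

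UPF1 RNA was reduced in the cells that received its siRNA, on both backgrounds. Reads at the skipped exon events of UPF1, scaled to reads per 1000000 reads at all matched skipped exon events (RPM), were 86.5, 116 and 155 in the siSFSWAP/siUPF1 libraries, against 379, 346 and 318 in the siSFSWAP libraries. The groups did not overlap, and the mean was 119 ± 34.3 in siSFSWAP/siUPF1 cells and 348 ± 30.1 in siSFSWAP cells (SD, n = 3 each), which is 65.7% lower (exact permutation test, two-sided, p = 0.1, which is as low as 3 against 3 can give). The reduction was 70.4% in cells with SFSWAP, with 87.4 ± 24.4 RPM in siNT/siUPF1 cells and 295 ± 53.3 in siNT cells. SFSWAP RNA overlapped between the groups compared, at 15.1, 21.1 and 31.0 RPM in the siSFSWAP/siUPF1 libraries and 18.3, 26.8 and 20.4 in the siSFSWAP libraries (exact permutation test, p = 0.9). The log2 ratio of the SFSWAP means was 0.04, and it was -0.69 when all events of each table were used, which differ between the tables, so whether SFSWAP was equally low in these groups depends on the events read. Both groups lay below the siNT/siUPF1 libraries, at 46.9 to 62.5, and the siNT libraries, at 52.7 to 55.8. In bulk RNA, fewer transcripts in every cell and fewer cells with the transcript cannot be told apart.

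**Figure D1:**
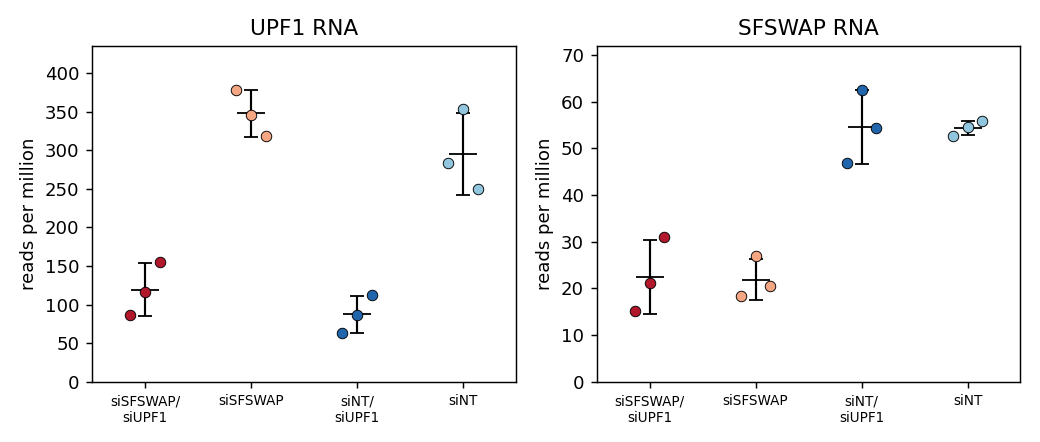
RPM at the skipped exon events of UPF1 (left) and SFSWAP (right) in each library (points), with the group mean and SD (bars), n = 3 per group. UPF1 lay at 86.5 to 155 in siSFSWAP/siUPF1 cells and at 318 to 379 in siSFSWAP cells, while the SFSWAP values of these groups overlapped.

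The libraries held 16909377 to 21381698 reads at matched skipped exons in siSFSWAP/siUPF1 cells and 21839837 to 22895173 in siSFSWAP cells. No library of the 6 stood apart in its exon levels, and no pair of libraries held the same values. Of the HEK293 markers, 3 of 6 (VIM, KRT8 and CDH2) have a readable event, and they summed to 488 to 590 RPM in siSFSWAP/siUPF1 cells and 442 to 476 in siSFSWAP cells. None of the 12 markers of lymphoid, liver, fibroblast or erythroid cells has one, so those cannot be read here. The siUPF1 libraries come from tables made in another run of the event caller than the libraries without it. An effect of the run and one of UPF1 therefore cannot be told apart where libraries with and without siUPF1 are compared. A run effect that is the same on both backgrounds cancels in the test of the difference between them, while one that differs does not. Of the skipped exons with enough reads, 19.4% in the siSFSWAP/siUPF1 table and 21.0% in the siSFSWAP table were in that table alone and were not tested.

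Few exons were called as changed when UPF1 was lowered in SFSWAP-depleted cells. The inclusion level estimates the share of transcripts with the exon or intron, from 0 to 1, after division of reads by the length they can come from. With a quasi-binomial model (Benjamini-Hochberg adjusted p of at most 0.05), 10 of 25748 skipped exons were called (0.0388%), of which 6 were higher (0.0233% of those tested) and 4 lower (0.0155%) in siSFSWAP/siUPF1 than in siSFSWAP cells. In cells with SFSWAP the same model called 430 of 28261 skipped exons (1.52%), 291 higher and 139 lower in siNT/siUPF1 than in siNT cells. At an unadjusted p under 0.05 there were 1278 exons in the SFSWAP-depleted pair, 4.96% of those tested, and 3237 of 28261 in the siNT pair. The 3 siSFSWAP/siUPF1 libraries lay above the 3 siSFSWAP libraries at 1414 exons (5.49%) and below them at 1020 (3.96%). The count of 10 rested on single libraries: it was 3 and 22 without the first and the second siSFSWAP/siUPF1 library, 5 and 20 without the first and the third siSFSWAP library, and 14 and 10 without the others. The count of 430 in the siNT pair was 253 and 661 without the second and the third siNT/siUPF1 library, and 201 without the first siNT library. With limma on log ratios of the reads, 0 exons were called in the SFSWAP-depleted pair and 0 in the siNT pair. In the SFSWAP-depleted pair the quasi-binomial model took the spread of each exon from exons of like depth. With each exon's own spread in its place, 0 were called.

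Over the exon levels as a whole, libraries of siSFSWAP/siUPF1 and siSFSWAP cells were about as far from each other as replicates were. The root mean square difference between libraries over 13288 exons was 0.0412 to 0.0514 from a siSFSWAP/siUPF1 to a siSFSWAP library, 0.0494 to 0.0510 among siSFSWAP/siUPF1 libraries, and 0.0447 to 0.0473 among siSFSWAP libraries. In cells with SFSWAP it was 0.0524 to 0.0696 from a siNT/siUPF1 to a siNT library, 0.0540 to 0.0622 among siNT/siUPF1 libraries and 0.0527 to 0.0605 among siNT libraries. The closest pairs crossed the groups. They were the third siSFSWAP/siUPF1 with the second siSFSWAP library (0.0412) and the second siSFSWAP/siUPF1 with the third siSFSWAP library (0.0436). On the siNT background the closest were the third siNT/siUPF1 and the second siNT library (0.0524). What these libraries share was not tested. Among 10683 exons that averaged 100 or more reads, the log2 odds ratio of inclusion had an SD of 0.88 in the SFSWAP-depleted pair and 1.12 in the siNT pair. It passed 1 in size at 19.0% of the exons in the SFSWAP-depleted pair and at 31.5% in the siNT pair, with median standard errors of 0.80 and 0.82.

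SRSF6 encodes an SR protein, one of the splicing activators that damp their own output through a poison exon. That exon, of 268 nt with a TAG that starts at base 150 (capitals in the sequence above), rose in siSFSWAP/siUPF1 cells. Its inclusion level was 0.371, 0.353 and 0.325 in the siSFSWAP/siUPF1 libraries, against 0.186, 0.284 and 0.237 in the siSFSWAP libraries. Every library with siUPF1 lay above every library without it, and the log2 odds ratio was 0.80 ± 0.15 (SE, adjusted p = 3.62e-04, quasi-binomial model). In cells with SFSWAP the level was 0.643, 0.661 and 0.460 in siNT/siUPF1 cells, against 0.231, 0.262 and 0.354 in siNT cells, a log2 odds ratio of 1.89 ± 0.18. The difference between the backgrounds did not pass (-1.09 ± 0.28, adjusted p = 0.262). The SRSF6 call was lost without the first siSFSWAP library, the lowest of the 3 (adjusted p = 0.826).

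UQCRH encodes the hinge protein of respiratory complex III. An added exon of 148 nt that shifts its frame had levels of 0.0662, 0.0764 and 0.0585 in the siSFSWAP/siUPF1 libraries, against 0.0388, 0.0378 and 0.0452 in the siSFSWAP libraries. It rose by a log2 odds ratio of 0.76 ± 0.10 (adjusted p = 3.95e-09), and it was the only one of the 10 calls that stood in all 6 fits that left out a library (highest adjusted p = 0.0026). Cells with SFSWAP had 0.0665, 0.0624 and 0.0498 in siNT/siUPF1 libraries and 0.0161, 0.0248 and 0.0222 in siNT libraries, a log2 odds ratio of 1.53 ± 0.13. The siSFSWAP libraries therefore lay above the siNT libraries at this exon, while the siSFSWAP/siUPF1 and siNT/siUPF1 libraries overlapped. UQCRH has a near-identical copy without introns, UQCRHL. That copy could share reads of the spliced form without the added exon, which are the skipping reads here. The levels of the UQCRH and HNRNPA1 exons lie near 0, where most false calls of skipped exons fell when the model was tested on simulated data. The simulated reads had a wider spread at such depth than the model fitted here, so how far this bears on these exons was not tested.

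RNPS1 encodes a splicing activator that also sits on the exon junction complex, the mark that NMD reads. Its exon of 188 nt at chr16:2264573-2264760 had levels of 0.834, 0.768 and 0.718 in siSFSWAP/siUPF1 cells and 0.611, 0.689 and 0.741 in siSFSWAP cells. The groups overlapped, the log2 odds ratio was 0.62 ± 0.12 (adjusted p = 0.0031), and the call was lost without the first siSFSWAP/siUPF1 or the first siSFSWAP library (highest adjusted p = 1). Its log2 odds ratio was 0.84 ± 0.14 in the siNT pair.

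TXNL4A encodes a protein of the U5 snRNP, part of the spliceosome. Exon 2 of TXNL4A, of 104 nt, had levels of 0.925, 0.860 and 0.865 in siSFSWAP/siUPF1 cells and 0.771, 0.848 and 0.751 in siSFSWAP cells (log2 odds ratio 0.95 ± 0.22, adjusted p = 0.0264). Its longer form of 128 nt, which has the same skipping reads, gave 0.900, 0.812 and 0.815 in siSFSWAP/siUPF1 cells and 0.671, 0.791 and 0.672 in siSFSWAP cells (1.06 ± 0.22, adjusted p = 0.0035). The longer form brings a TAG from base 22. It holds all bases of the shorter form, so these events are not separate evidence that both forms rose. Each of these calls was lost without the first siSFSWAP/siUPF1, the first siSFSWAP or the third siSFSWAP library (highest adjusted p = 1 for the shorter form and 0.693 for the longer). The siNT pair had log2 odds ratios of 0.11 ± 0.26 and 0.16 ± 0.26.

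HNRNPA1 encodes an hnRNP protein that silences exons. Its exon 8 (GENCODE numbering) of 156 nt, which keeps the frame and gives the longer A1B protein, fell in siSFSWAP/siUPF1 cells. The level was 0.0480, 0.0508 and 0.0520 in the siSFSWAP/siUPF1 libraries, against 0.0671, 0.0653 and 0.0572 in the siSFSWAP libraries (log2 odds ratio -0.33 ± 0.07, adjusted p = 0.0033). A form of 172 nt with an earlier start, which brings a TGA, gave 0.0235, 0.0279 and 0.0243 in siSFSWAP/siUPF1 cells and 0.0352, 0.0342 and 0.0322 in siSFSWAP cells (-0.43 ± 0.09, adjusted p = 0.0043). These events share their skipping reads and are not separate evidence. In the siNT pair the groups overlapped at both forms. The log2 odds ratio there was -0.12 ± 0.09 for the shorter form (adjusted p = 0.671) and -0.14 ± 0.12 for the longer (adjusted p = 0.716). The mean level of the shorter form was 0.0503 in siSFSWAP/siUPF1, 0.0508 in siNT/siUPF1 and 0.0551 in siNT cells. It was highest in siSFSWAP cells, at 0.0632. The HNRNPA1 calls were lost without the first siSFSWAP/siUPF1, the first siSFSWAP or the second siSFSWAP library, the longer form also without the third siSFSWAP/siUPF1 library (highest adjusted p = 0.693 for the shorter form and 0.356 for the longer). HNRNPA1 has many processed copies in the genome, and how reads were divided among them is not given in the sources used here.

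ALDOA encodes the glycolytic enzyme aldolase A. Its exon of 52 nt at chr16:30065876-30065927 had levels of 0.478, 0.467 and 0.453 in siSFSWAP/siUPF1 cells and 0.670, 0.521 and 0.517 in siSFSWAP cells (log2 odds ratio -0.66 ± 0.15, adjusted p = 0.0267), and -0.63 ± 0.15 in cells with SFSWAP. The ALDOA call was lost in 4 of 6 fits that left out a library: the first, the second or the third siSFSWAP/siUPF1 library, or the first siSFSWAP library (highest adjusted p = 1).

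The other calls rested on reads of single libraries and were named after their values were seen. An exon of YBX1, which encodes a Y-box RNA-binding protein, had 36 skipping reads in one siSFSWAP library and 0 in the other libraries of these groups, but 24 to 66 in the siNT/siUPF1 and siNT libraries. An exon at chr20:30391197-30391308, in no named gene, had 36 skipping reads in one siSFSWAP/siUPF1 library and 0 in the rest of the 6. No fold is given for these, since one group had no skipping read.

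**Figure D2:**
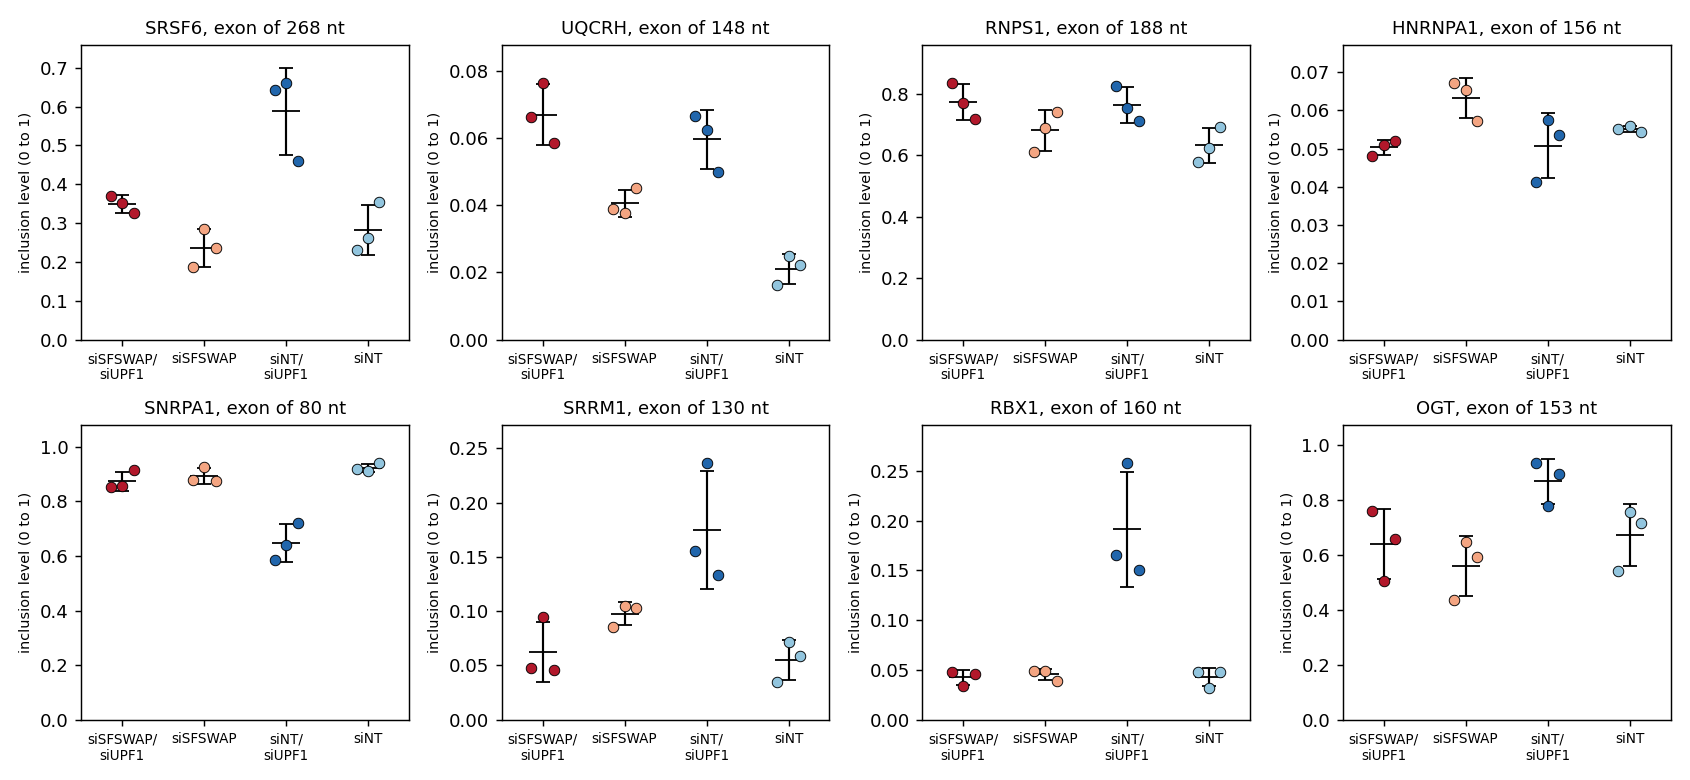
Inclusion level (0 to 1) of 8 exons in each library (points), with the group mean and SD (bars), n = 3 per group. In the upper row SRSF6 and UQCRH were higher and HNRNPA1 was lower in every siSFSWAP/siUPF1 library than in every siSFSWAP library, and RNPS1 overlapped. In the lower row SNRPA1, SRRM1, RBX1 and OGT overlapped between siSFSWAP/siUPF1 and siSFSWAP cells and did not overlap between siNT/siUPF1 and siNT cells.

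Few retained introns were called among those that could be compared. Of the retained introns with enough reads, 41.5% in the siSFSWAP/siUPF1 run and 47.1% in the siSFSWAP run were found in that run alone. These were not tested. Of 3015 introns tested, 3 were called (0.0995%), 0 higher (0%) and 3 lower (0.0995%) in siSFSWAP/siUPF1 cells by the quasi-binomial model, and limma called 0. At an unadjusted p under 0.05 there were 148 (4.91%). The siSFSWAP/siUPF1 libraries lay above the siSFSWAP libraries at 158 introns (5.24%) and below them at 119 (3.95%), with a median log2 odds ratio of 0.01. In the siNT pair 2 of 3034 introns were called (0.0659%). Over the 2731 introns tested in both comparisons, 280 had an unadjusted p under 0.05 in the siNT pair (10.3%). At these introns the siNT/siUPF1 libraries lay above the siNT libraries at 107 (3.92%) and below them at 290 (10.6%). Their median log2 odds ratio in the siNT pair was -0.18. Each of the 3 calls rested on reads of 1 or 2 libraries, and HNRNPA1 and PTMS were named after their values were seen. EIF3M, a subunit of the translation initiation factor eIF3, had 12, 6 and 12 intron reads in siSFSWAP/siUPF1 cells and 265, 17 and 17 in siSFSWAP cells for its intron 3. The HNRNPA1 intron at chr12:54282663-54282799 had 151, 0 and 183 skipping reads in siSFSWAP/siUPF1 cells and none in siSFSWAP cells. PTMS, which encodes parathymosin, had 603 skipping reads in one siSFSWAP/siUPF1 library and 0 in the rest of the 6. No intron was called without the third siSFSWAP/siUPF1 library, and 10 and 7 were called without the second and the first.

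OGT, the transferase that adds O-GlcNAc, holds a decoy exon in its retained intron (chrX:71546344-71546496), with an in-frame TGA that starts at base 16. Reads inside the decoy count as inclusion also where they come from RNA that still holds the whole intron, so its level is not the share of spliced transcripts that include it. That level was 0.759, 0.505 and 0.659 in the siSFSWAP/siUPF1 libraries, against 0.437, 0.649 and 0.592 in the siSFSWAP libraries. The groups overlapped, at 0.641 ± 0.128 in siSFSWAP/siUPF1 cells and 0.559 ± 0.110 in siSFSWAP cells (SD, n = 3 each, exact permutation test p = 0.4). The log2 odds ratio was 0.46, with a 95% interval of -0.13 to 1.04 (adjusted p = 0.995). In cells with SFSWAP the level was 0.934, 0.778 and 0.893 in siNT/siUPF1 libraries and 0.543, 0.755 and 0.715 in siNT libraries, which do not overlap (log2 odds ratio 1.53 ± 0.53, adjusted p = 0.11). The difference between the backgrounds was -1.08 ± 0.65 (adjusted p = 0.842), so the decoy exon was not shown to respond differently. A shorter form with the same start, which shares its reads, gave 0.46 and 1.49 with and without SFSWAP depletion. Another OGT intron, downstream of the decoy at chrX:71559426-71559587, gave -0.66 (adjusted p = 0.997), and the intron that holds the decoy was not among the retained introns tested here.

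The exons that siUPF1 changed in cells with SFSWAP were then followed in SFSWAP-depleted cells. Those cells share no library with the siNT pair. Of the exons called in the siNT pair, 405 were tested in both. The 277 that were higher in siNT/siUPF1 cells, in 182 genes, had a median log2 odds ratio of 0.26 in SFSWAP-depleted cells and 1.83 in the siNT pair. Their sign was the same for 204 (73.6%), beside 54.0% of all 25748 exons with a positive value. The median level of these exons was 0.132, 0.186 and 0.127 in siSFSWAP/siUPF1 libraries, 0.106, 0.113 and 0.141 in siSFSWAP libraries, 0.232, 0.313 and 0.199 in siNT/siUPF1 libraries and 0.0648, 0.0823 and 0.116 in siNT libraries. The libraries with and without siUPF1 overlapped on the SFSWAP-depleted background and did not overlap on the siNT background, which is where the exons were chosen. At single exons, 31 lay above, 3 below and 243 overlapped in SFSWAP-depleted cells, 37 had an unadjusted p under 0.05, and 3 were called.

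The 128 exons that were lower in siNT/siUPF1 cells, in 89 genes, had a median of -0.38 in SFSWAP-depleted cells and -1.78 in the siNT pair. The sign was the same for 104 (81.3%), beside 45.9% of all exons with a negative value. Here 17 lay below and none above, 22 had an unadjusted p under 0.05, and ALDOA was called. The 4 exons called on both backgrounds were those of SRSF6, UQCRH, RNPS1 and ALDOA. The log2 odds ratio was smaller in size, whatever its sign, in SFSWAP-depleted cells for 272 of 277 higher and 126 of 128 lower exons. Because these exons were picked for a large change in the siNT pair, a smaller value elsewhere is in part set by that choice, and no test was made of it. Leaving out 1 library of the SFSWAP-depleted pair moved the medians between 0.15 and 0.35 for the higher and between -0.52 and -0.19 for the lower exons.

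**Figure D3:**
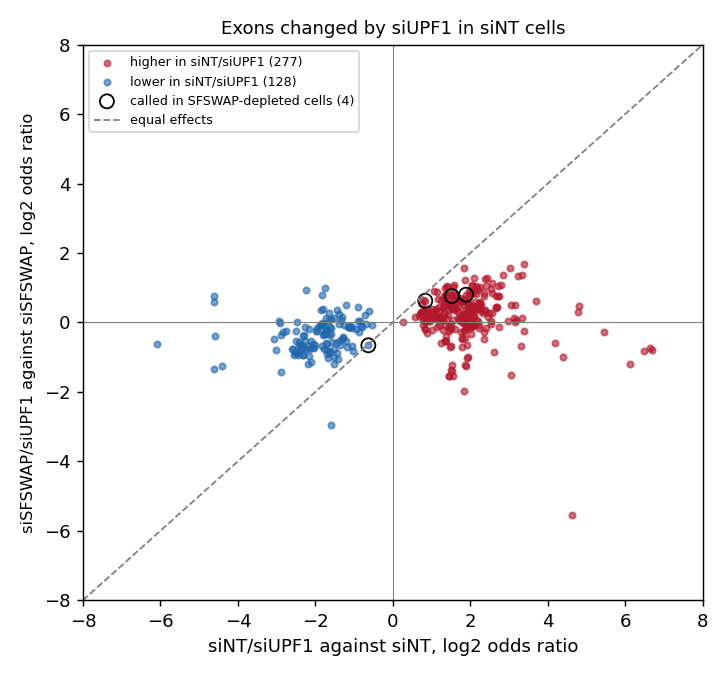
Log2 odds ratio of inclusion in siNT/siUPF1 against siNT cells (x axis) and in siSFSWAP/siUPF1 against siSFSWAP cells (y axis) for the 405 exons called in the siNT pair (277 higher, red, and 128 lower, blue). Circles mark the 4 exons also called in SFSWAP-depleted cells, and the dashed line marks equal values. The points lie mostly between the dashed line and 0.

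The difference between the backgrounds was tested at each event with the product of the SFSWAP and UPF1 siRNAs over all 12 libraries. It was called at 3 of 25748 skipped exons (0.0117%) and 1 of 3015 retained introns (0.0332%). At an unadjusted p under 0.05 there were 1593 exons (6.19% of those tested) and 186 introns (6.17%), and limma called 0 of either.

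SNRPA1 encodes the U2 snRNP protein A′. Skipping of its exon 6, of 80 nt, shifts the frame, and the form without it is annotated as an NMD target. The inclusion level was 0.851, 0.856 and 0.914 in siSFSWAP/siUPF1 cells, against 0.879, 0.927 and 0.873 in siSFSWAP cells, and 0.584, 0.640 and 0.721 in siNT/siUPF1 cells, against 0.918, 0.909 and 0.939 in siNT cells. The exon was lower in every siNT/siUPF1 library than in every siNT library, while the SFSWAP-depleted libraries overlapped. The log2 odds ratios were -0.25 and -2.77, and their difference was 2.52 ± 0.37 (adjusted p = 2.36e-04).

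SRRM1 encodes a serine/arginine-rich co-activator of splicing. The added exon of 130 nt, with a TGA from base 4, had levels of 0.0473, 0.0944 and 0.0457 in siSFSWAP/siUPF1 cells, against 0.0855, 0.105 and 0.103 in siSFSWAP cells. It stood at 0.155, 0.236 and 0.133 in siNT/siUPF1 cells, against 0.0351, 0.0712 and 0.0585 in siNT cells. Thus siUPF1 went with a log2 odds ratio of -0.72 in SFSWAP-depleted cells (95% interval -1.27 to -0.16, adjusted p = 0.862) and of 1.80 in cells with SFSWAP, a difference of -2.51 ± 0.43 (adjusted p = 0.0021).

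RBX1 encodes the RING subunit of cullin ubiquitin ligases. Its added exon of 160 nt stood at 0.0478, 0.0341 and 0.0458 in siSFSWAP/siUPF1 cells, against 0.0488, 0.0487 and 0.0394 in siSFSWAP cells, and at 0.166, 0.258 and 0.150 in siNT/siUPF1 cells, against 0.0483, 0.0321 and 0.0479 in siNT cells. The siNT/siUPF1 libraries alone were high. The log2 odds ratios were -0.16 and 2.40, with a difference of -2.55 ± 0.50 (adjusted p = 0.0209), and the call was lost without the second siSFSWAP/siUPF1 library or any one of the siSFSWAP libraries (highest adjusted p = 0.136).

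CREBZF encodes a leucine zipper transcription factor. The intron at chr11:85662458-85663523, outside its annotated coding transcripts, was retained at 0.209, 0.211 and 0.253 in siSFSWAP/siUPF1 cells, against 0.207, 0.20 and 0.190 in siSFSWAP cells. It was retained at 0.236, 0.238 and 0.266 in siNT/siUPF1 cells, against 0.554, 0.401 and 0.478 in siNT cells. Here it was the siNT cells without siUPF1 that stood apart, and the log2 odds ratios were 0.23 and -1.41 (difference 1.65 ± 0.23, adjusted p = 3.64e-04). The SNRPA1, SRRM1 and CREBZF differences stood in all 12 fits that left out a library (highest adjusted p = 0.0489, 0.0489 and 0.0038). The count of 3 exons was 2 to 68 over those fits, with 68 without the third siNT/siUPF1 library, 31 without the second or the third siNT library, 16 and 13 without the first and the second siNT/siUPF1 library, 10 and 8 without the second and the third siSFSWAP/siUPF1 library, and 7 without the first siSFSWAP library. It was 2 without the second or the third siSFSWAP library. For introns the count of 1 was 6 without the third siNT/siUPF1 library, 3 without the second siNT/siUPF1 or the second siNT library, and 2 without the second siSFSWAP/siUPF1, the first siNT or the third siNT library.

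The next exons in this order did not pass. The HNRNPH3 exon of 226 nt had levels of 0.883, 0.827 and 0.868 in siSFSWAP/siUPF1 cells, against 0.879, 0.877 and 0.872 in siSFSWAP cells, and 0.502, 0.435 and 0.664 in siNT/siUPF1 cells, against 0.845, 0.783 and 0.815 in siNT cells (difference 1.73 ± 0.37, adjusted p = 0.099). The RSRC2 exon of 78 nt had a difference of -1.75 ± 0.36 (adjusted p = 0.061), and the DNAJC2 exon of 47 nt one of -2.17 ± 0.48 (adjusted p = 0.099). HNRNPH3 is an hnRNP protein, RSRC2 an arginine/serine-rich protein, and DNAJC2 a ribosome-bound chaperone.

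Grouped by gene function, no list of splicing or NMD genes held more than 2 called exons in SFSWAP-depleted cells. SR proteins had 79 tested exons in 10 genes, of which 1 was called higher and 0 lower, 8 lay above (10.1%) and 2 below (2.53%), beside 5.49% and 3.96% of all exons, with a median of 0.18 beside 0.07. Of the 10 SR protein exons called higher in the siNT pair, in 6 genes, 7 had the same sign here and 4 lay above. Of all 277 exons called higher there, 204 had the same sign and 31 lay above. The 10 SR protein exons had a median of 0.32 here and 1.07 in the siNT pair. The SRSF3 poison exon of 456 nt stood at 0.0366, 0.0647 and 0.0347 in siSFSWAP/siUPF1 cells, against 0.0380, 0.0426 and 0.0493 in siSFSWAP cells (log2 odds ratio 0.05 ± 0.11, and 0.85 ± 0.16 in the siNT pair). For SRSF7 the exon of 107 nt had -0.22 ± 0.26 here and 1.01 ± 0.24 in the siNT pair, and for SRSF2 the exon of 104 nt had 0.33 ± 0.39 here and 1.10 ± 0.27 in the siNT pair. SRSF3, SRSF7 and SRSF2 overlapped between groups on both backgrounds.

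The hnRNP proteins had 144 tested exons in 20 genes, with 0 called higher and 2 lower, both the HNRNPA1 exon, and 10 lay below (6.94%) and 2 above (1.39%), beside 3.96% and 5.49% of all exons. Exon 3 of HNRNPM, of 53 nt, stood at 0.976, 0.966 and 0.980 in siSFSWAP/siUPF1 cells, against 0.985, 0.986 and 0.983 in siSFSWAP cells (log2 odds ratio -0.80 ± 0.37, adjusted p = 0.967, and -3.01 ± 0.43 in the siNT pair). Other splicing regulators had 289 exons with 0 called, 15 above (5.19%) and 12 below (4.15%). Of 21 called higher in the siNT pair, in 7 genes, 19 had the same sign, beside 204 of all 277 such exons. The 21 exons had a median of 0.24 here and 1.78 there. SNRPB, a core snRNP protein that controls its own level through a poison exon, had a log2 odds ratio of 0.47 ± 0.29 for that exon of 124 nt, and 2.23 ± 0.23 in the siNT pair. Branchpoint and U2 factors had 77 exons with 0 called. The SF1 exon of 65 nt, in the gene for the protein that binds the branchpoint, stood at 0.911, 0.758 and 0.903 in siSFSWAP/siUPF1 cells, against 0.938, 0.905 and 0.881 in siSFSWAP cells (-0.75 ± 0.28, adjusted p = 0.837, and -2.60 ± 0.33 in the siNT pair). Splicing kinases had 27 exons, none called and none outside the overlap.

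The NMD factors had 88 tested exons in 19 genes, of which only the RNPS1 exon was called, with 8 above (9.09%) and 2 below (2.27%), beside 5.49% and 3.96% of all exons. Among those above, the UPF3A exon of 99 nt stood at 0.984, 0.954 and 0.981 in siSFSWAP/siUPF1 cells, against 0.822, 0.863 and 0.928 in siSFSWAP cells (log2 odds ratio 2.14 ± 0.88, adjusted p = 0.826). UPF3A is a paralogue of the NMD factor UPF3B, and its exon did not pass the test. MAGOHB, of the exon junction complex, had a log2 odds ratio of 0.30 ± 0.27 for its poison exon of 366 nt, against 1.95 ± 0.29 in the siNT pair.

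Translation factors had 282 exons, with 0 called, 34 above (12.1%) and 15 below (5.32%), beside 5.49% and 3.96% of all exons. The EIF4G1 exon of 66 nt, in the scaffold of the cap-binding complex, came nearest to a call, at 0.109, 0.134 and 0.110 in siSFSWAP/siUPF1 cells, against 0.0437, 0.0578 and 0.0892 in siSFSWAP cells (log2 odds ratio 1.05 ± 0.29, adjusted p = 0.24, and 1.40 ± 0.26 in the siNT pair). Exon 4 of EIF4A2, an RNA helicase of the same complex, stood at 0.809, 0.855 and 0.834 in siSFSWAP/siUPF1 cells, against 0.884, 0.905 and 0.921 in siSFSWAP cells (-0.89 ± 0.36, adjusted p = 0.876). The groups did not overlap at either exon. Of the remaining lists, cytosolic ribosomal proteins (342 exons), DNA repair (258), chromatin modifiers (226), known NMD targets (118), snoRNA host genes (107), m6A methylation (56) and the O-GlcNAc pathway (51) held 0 called exons.

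Exons that bring a stop, or whose loss shifts the frame, stood near the value of all exons in SFSWAP-depleted cells. Exons that, when added, bring an in-frame stop numbered 5758, and their median log2 odds ratio was 0.11 in SFSWAP-depleted cells. The siNT values of each class are over its exons that were tested in both pairs, here 4819, with a median of 0.67. In the SFSWAP-depleted pair 5.92% of the 5758 lay above, beside 5.49% of all 25748 exons, and in the siNT pair 17.1% of the 4819 lay above, beside 9.69% of the 20314 exons tested in both pairs. Coding exons whose skipping shifts the frame numbered 3666, with a median of 0.00 in SFSWAP-depleted cells, and the 2616 of them tested in both pairs had a median of -0.44 in the siNT pair. In the SFSWAP-depleted pair 4.39% of the 3666 lay below, beside 3.96% of all exons, and in the siNT pair 13.9% of the 2616 lay below, beside 5.39% of those tested in both pairs. Added exons that keep the frame had medians of 0.03 and 0.15, and coding exons whose skipping keeps the frame had 0.12 and 0.24. Over all exons the medians were 0.07 and 0.21.

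By the annotation of transcripts as NMD targets, 1564 exons had an inclusion form of that kind, with a median of 0.14 in SFSWAP-depleted cells, and 1410 of them had a median of 0.74 in the siNT pair. For the 1022 of these exons that averaged 50 or more reads and had a level in all 12 libraries, the median level was 0.0280, 0.0455 and 0.0292 in siSFSWAP/siUPF1 libraries, 0.0280, 0.0276 and 0.0380 in siSFSWAP libraries, 0.0383, 0.0593 and 0.0360 in siNT/siUPF1 libraries and 0.0195, 0.0216 and 0.0303 in siNT libraries. The libraries with and without siUPF1 overlapped in SFSWAP-depleted cells and did not in cells with SFSWAP. For 1008 exons whose skipping form is so annotated the median was -0.04 in SFSWAP-depleted cells, and for 836 of them it was -0.50 in the siNT pair.

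**Figure D4:**
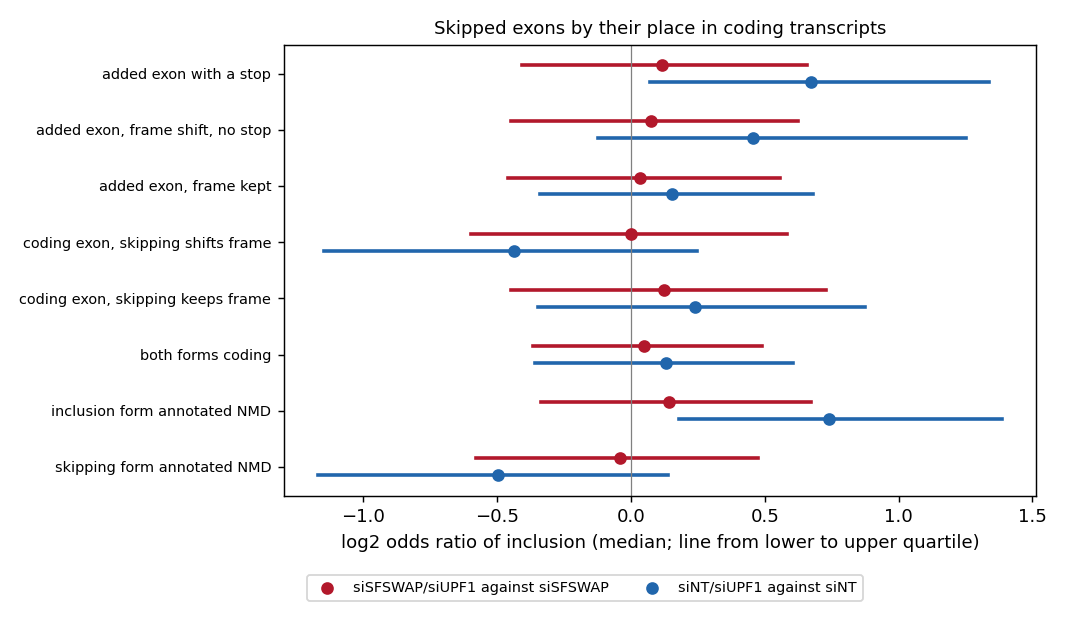
Median log2 odds ratio of inclusion (points) with the lower and upper quartile over exons (lines) for each class of skipped exon, in siSFSWAP/siUPF1 against siSFSWAP cells (red) and in siNT/siUPF1 against siNT cells (blue). The red medians lie between -0.04 and 0.14, and the blue medians between -0.50 and 0.74.

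Reads at the events of a gene also give a rough view of how much of its RNA there was. Over 7175 genes that averaged 100 or more reads, the siSFSWAP/siUPF1 libraries lay above the siSFSWAP libraries for 925 (12.9%) and below for 857 (11.9%), and the siNT/siUPF1 libraries lay above the siNT libraries for 1383 (19.3%) and below for 593 (8.26%). The median ratio was 1.02 in SFSWAP-depleted cells and 1.08 in the siNT pair. Known NMD targets were read for 19 of 27 genes, of which 4 lay above (GAS5, SNHG5, SNHG8 and BAG1), 1 below (TBL2) and 14 overlapped, with a median ratio of 0.999 here and 1.28 in the siNT pair, where 8 lay above and 1 below.

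GAS5, a snoRNA host gene whose short reading frames make it a classical NMD target, had 1699, 1813 and 1370 RPM in siSFSWAP/siUPF1 cells, against 1101, 1286 and 1189 in siSFSWAP cells. It had 4801, 3858 and 2311 in siNT/siUPF1 cells, against 1136, 1223 and 1264 in siNT cells. The ratio was 1.37 in SFSWAP-depleted cells and 3.03 in cells with SFSWAP. GAS5 was the host gene with the widest gap between the ratios of those named here, and SNHG5, another snoRNA host gene, had 1.46 and 1.76.

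SNHG8 had ratios of 1.33 and 1.58. BAG1, a co-chaperone of HSP70, had 6.39, 9.0 and 5.99 in siSFSWAP/siUPF1 cells, against 4.28, 5.22 and 4.95 in siSFSWAP cells, and ratios of 1.48 and 2.48. TBL2 had 53.8, 55.4 and 52.0 in siSFSWAP/siUPF1 cells, against 59.8, 58.8 and 55.7 in siSFSWAP cells, a ratio of 0.925, where the siNT pair had 1.29. ATF4, the stress transcription factor whose upstream frames expose it to NMD, overlapped on both backgrounds, with ratios of 0.944 and 1.28. SNHG1 overlapped in SFSWAP-depleted cells (ratio 1.27) and lay above in the siNT pair (2.10).

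NMD factors, several of which are NMD targets themselves, were read for 18 of 22 genes. In SFSWAP-depleted cells 2 lay above (ETF1 and UPF3B), 1 below (UPF1) and 15 overlapped, and in the siNT pair 5 lay above and 4 below. UPF3B had 152, 121 and 110 RPM in siSFSWAP/siUPF1 cells, against 78.0, 79.0 and 108 in siSFSWAP cells, and ratios of 1.44 and 1.54. SMG1, the kinase that phosphorylates UPF1, had 90.3, 113 and 108 in siSFSWAP/siUPF1 cells, against 73.6, 88.4 and 110 in siSFSWAP cells, which overlap, and ratios of 1.14 and 1.66. ETF1, the release factor, had a ratio of 1.29 in SFSWAP-depleted cells and 0.934 in the siNT pair. Among 16 of 21 snoRNA host genes that were read, 3 lay above (the GAS5, SNHG5 and SNHG8 given above), 1 below and 12 overlapped, with a median ratio of 1.16, beside 8 above, 0 below and 1.58 in the siNT pair. These counts stand beside the shares over all genes, 12.9% above and 11.9% below in SFSWAP-depleted cells. In the siNT pair the shares over all genes were 19.3% above and 8.26% below. No test was made of a list.

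**Figure D5:**
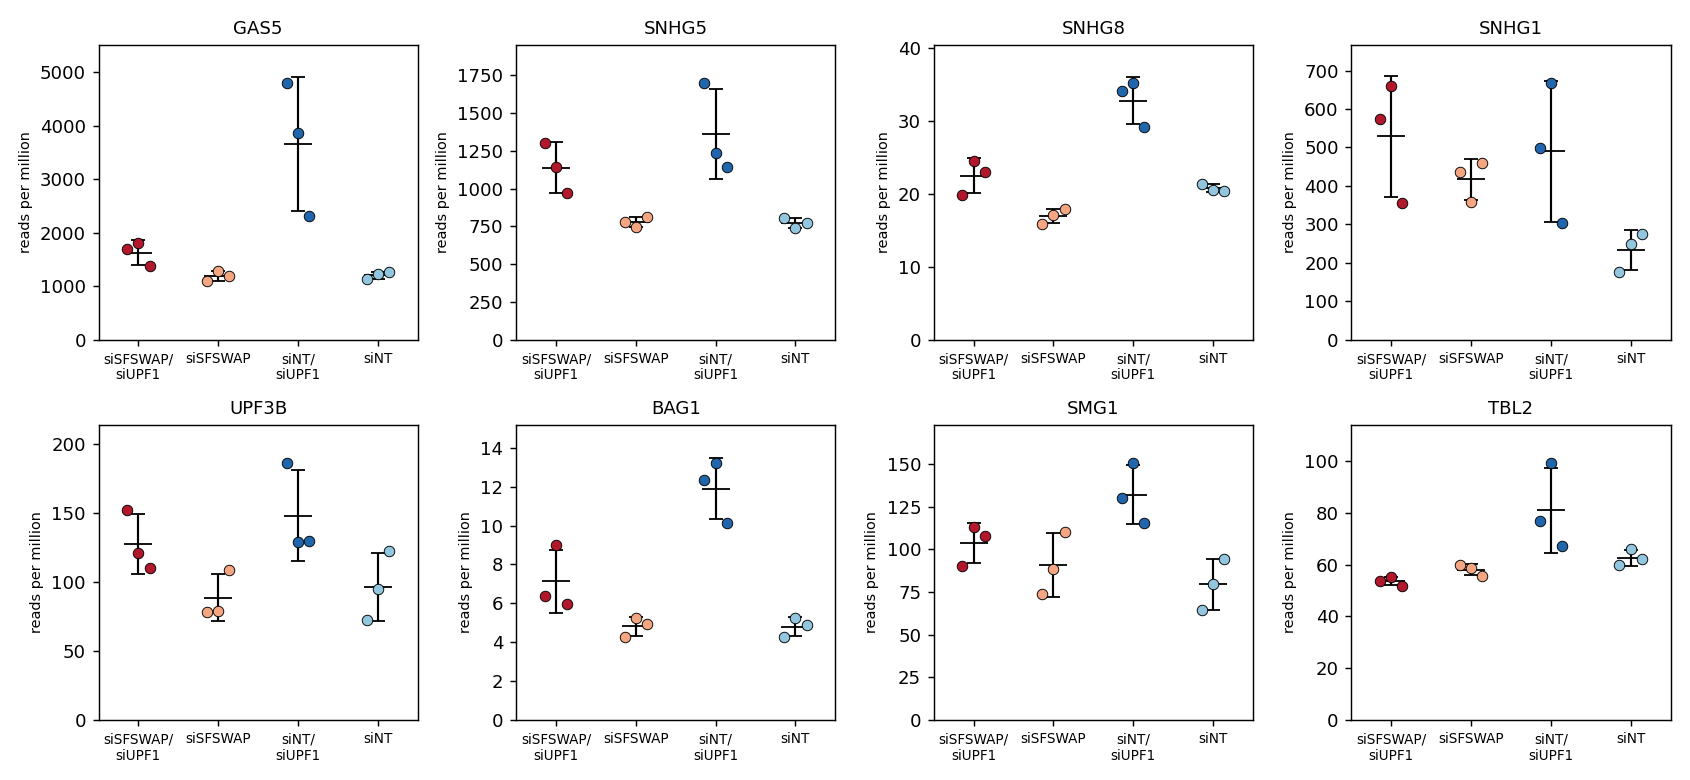
RPM at the skipped exon events of 8 NMD factors or targets in each library (points), with the group mean and SD (bars), n = 3 per group. GAS5 lay at 1370 to 1813 in siSFSWAP/siUPF1 cells and 1101 to 1286 in siSFSWAP cells, and at 2311 to 4801 in siNT/siUPF1 cells and 1136 to 1264 in siNT cells.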

How the data were processed

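Reads were trimmed with cutadapt 1.9.1 and aligned with STAR 2.7 to GRCh38.p8 per the labels, with RefSeq extended by candidate decoy exons, and the authors ran rMATS with siNT and siSFSWAP samples in one run and the UPF1 knockdown samples in another. The deposited tables hold inclusion and skipping read counts per event (junction and exon reads), 3 libraries joined in a cell in no stated order. They also hold the authors' level difference (score), p-value and FDR of siNT against siSFSWAP, which were not used. Libraries are numbered by their place in the cell.

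Events of both runs were matched on gene symbol, chromosome, strand and all coordinates. The inclusion level was (I/length)/(I/length + S/length). Events averaging 10 or more reads, with 10 or more of each form over 6 libraries, were tested by quasi-binomial regression, with the dispersion moderated by limma 3.58.1 (R 4.3.3) to a trend on depth, a floor of 1, an F test on the deviance and Benjamini-Hochberg adjustment. Odds ratios came from reads summed per group plus a pseudocount of 0.5. Tested on simulated data, false calls exceeded the nominal rate, for skipped exons mostly at levels near 0 or 1. At the depth of the UQCRH and HNRNPA1 exons the simulated reads had a wider spread than the model fitted here. How far the simulated rate bears on such exons was not tested. Intervals are 95%. Frames, stops and NMD annotation came from GENCODE 44, sequences from hg38.

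Named were UPF1, SFSWAP and OGT, called events averaging 50 or more reads without overlap (10 per direction), 4 genes per list with the lowest adjusted p among called events, also of the siNT pair, 6 genes by adjusted p of the difference, and NMD factors and targets. The members, the 14 lists and the rule were chosen with earlier results of these data known. Intervals and tests cover the spread between libraries only. For skipped exons of the SFSWAP-depleted pair, the moderation put the trend on depth in place of each exon's own dispersion. The standard errors, intervals and adjusted p-values of these exons therefore carry that trend, not the spread of the single exon. Single-gene values of some members of the lists are not reported here.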

Additional observations from a re-analysis of the deposited data

Results flagged for a closer look

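In 4 events the effect of siUPF1 differed between the backgrounds by a test of the difference itself (quasi-binomial model, product term over 12 libraries, Benjamini-Hochberg adjusted p). The SNRPA1 exon 6 differed by 2.52 on the log2 odds scale (adjusted p = 2.36e-04), with -0.25 in SFSWAP-depleted cells and -2.77 in cells with SFSWAP. The SRRM1 added exon differed by -2.51 (adjusted p = 0.0021), with -0.72 and 1.80. The RBX1 added exon differed by -2.55 (adjusted p = 0.0209), with -0.16 and 2.40. The CREBZF intron differed by 1.65 (adjusted p = 3.64e-04), with 0.23 and -1.41.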

How the results depend on the processing

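The count of 10 skipped exons was 9 with a mean of at least 30 reads, 13 with no filter, 19 with a common dispersion, 0 with each event's own dispersion, 0 with limma at a pseudocount of 0.5 or 1, and 5 and 1 when a level difference of at least 0.1 and 0.2 was also asked, with 3 to 22 when 1 library was left out. The count of 3 retained introns was 1 with at least 30 reads, 9 with no filter, 0 with the own dispersion, 0 with limma at either pseudocount, 1 at a level difference of at least 0.2, and 0 to 10 when 1 library was left out. In the siNT pair limma called 0 exons and 1 intron, and leaving out 1 library gave 201 to 661 exons and 1 to 16 introns. For the difference between backgrounds limma called 0 exons and 0 introns, with 2 to 68 exons and 1 to 6 introns when 1 library was left out. The medians of the exons called in the siNT pair ranged from 0.15 to 0.35 (higher) and from -0.52 to -0.19 (lower). The log2 ratio of UPF1 reads was -1.54, and -2.11 over all events of each table, with -1.78 to -1.36 when 1 library was left out. The log2 ratio of SFSWAP reads was 0.04 and changed sign to -0.69 over all events of each table, which differ between runs. Leaving out 1 library gave -0.27 to 0.25, with -0.27 without the third siSFSWAP/siUPF1 library and -0.08 and -0.01 without the first and the third siSFSWAP library. The OGT decoy exon stayed short of a call in all 14 settings, at 0.08 to 0.89 when 1 library was left out. The cause of these shifts was not tested. No paired analysis was possible because the joined cells carry no replicate numbers. Settings of the gene read counts and of 1 event per exon in the medians were chosen after seeing the data, and no list count of the gene reads moved.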
